A study of Rattus norvegicus with 4 samples.

Results

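Integrin subunit, laminin chain and nidogen genes were examined in the colon mucosa of rats given resveratrol before chemically induced colitis. The genes were chosen by name in the deposited scanner files: names of integrin alpha and beta subunits, of laminin alpha, beta and gamma chains, and of Nid1, Nid2 and Hspg2, with collagens not included. The rule found 37 gene names on 59 probes, of 35561 names on 41012 non-control probes of the array. They were 22 integrin subunits, 9 laminin chains, 2 nidogens and, through the beginning of their names, 4 proteins named for binding an integrin tail. No probe on the array was named Hspg2, so perlecan has no value here.

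The treated F344 rats had received resveratrol, a plant polyphenol, at 1 mg/kg/day for 20 days and then 5% dextran sodium sulphate (DSS), which injures the colon epithelium, in drinking water for 5 days. The control rats had received standard chow and then the same 5% DSS for 5 days, so every sample came from inflamed colon and no array held RNA from healthy mucosa. Each of 4 arrays of 60-base probes compared RNA of 2 resveratrol plus DSS rats, in the Cy5 dye, with a pool of DSS control rats in the Cy3 dye, and there were 8 rats per group. Arrays 1 and 2 lay on slide 1 and arrays 3 and 4 on slide 2. All values below are log2 ratios of resveratrol plus DSS over the DSS control pool, so a positive value means a higher level with resveratrol. The dyes were not exchanged on any array, so a dye effect of a probe cannot be told apart from the treatment. The control pool stands as 1 control sample, and the spread between control rats is left out of every error. The labels do not say how many control rats were pooled or whether the 4 arrays shared a single pool.

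Epithelia rest on a basement membrane built from networks of laminin and type IV collagen, which nidogens and perlecan link together. A laminin is a trimer of 1 alpha, 1 beta and 1 gamma chain. Integrins are receptors of 1 alpha and 1 beta subunit that span the cell membrane, and the alpha subunit largely sets whether the pair holds laminin, collagen, ligands with the tripeptide RGD such as fibronectin, or the surface of another cell. In epithelium, the integrin of the alpha 6 and beta 4 subunits anchors hemidesmosomes to a laminin that holds the alpha 3 and beta 3 chains. In the gut, subunits such as alpha E and beta 7 sit on lymphocytes.

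What each value measures is set by the 60 bases of its probe, so probes of the genes with the main differences are given here as the deposited scanner files hold them, with their rn3 positions. For Itga6 the called probe and the uncalled one are shown, and for Itgav the uncalled one. Of the 59 probes, 55 had a position, and 24 of these were placed over more than 60 bases, and these are taken here to cross an intron, with no gene annotation of that build at hand. Capitals in the Itga3 probe mark the bases that encode the conserved membrane-proximal motif of integrin alpha subunits, which was found in 3 of the probes. Capitals in the uncalled Itga6 probe mark CACCTC, since the 3.80% of all tested probes that hold CACCTC or ACCTCA had a median log2 ratio of 0.20, against -0.03 for the others.
Lamb3, chr13:109359598-109361300, plus strand: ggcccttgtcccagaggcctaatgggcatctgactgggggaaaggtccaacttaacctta
Lama5, chr3:169144214-169144352, minus strand: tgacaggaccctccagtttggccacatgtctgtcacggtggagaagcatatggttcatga
Lamb1, chr6:49181266-49183037, plus strand: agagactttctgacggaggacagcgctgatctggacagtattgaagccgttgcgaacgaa
Lamc1, chr13:68265455-68266503, minus strand: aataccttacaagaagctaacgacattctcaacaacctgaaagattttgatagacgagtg
Itga3, chr10:83744454-83744847, minus strand: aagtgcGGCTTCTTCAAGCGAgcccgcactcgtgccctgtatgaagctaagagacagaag
Itga6 (called), chr3:54160172-54160231, plus strand: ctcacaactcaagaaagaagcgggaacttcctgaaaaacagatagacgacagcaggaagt
Itga6 (uncalled), chr3:54132329-54132388, plus strand: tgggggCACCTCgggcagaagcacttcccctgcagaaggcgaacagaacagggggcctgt
Itga5, chr7:142344730-142344957, minus strand: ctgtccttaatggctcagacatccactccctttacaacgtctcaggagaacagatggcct
Itgav, chr3:66916803-66917367, plus strand: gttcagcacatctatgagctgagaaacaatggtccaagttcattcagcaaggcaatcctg
Itgb7, chr7:141048034-141048217, minus strand: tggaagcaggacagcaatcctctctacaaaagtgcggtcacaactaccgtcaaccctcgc

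Of the 59 probes, 39 were bright enough and had enough usable spots to be tested, and they covered 24 of the 37 genes. A probe is called here when limma's Benjamini-Hochberg adjusted p, over all 18896 tested probes of the array, was under 0.05. Of the 39 probes, 15 were lower and 7 higher with resveratrol plus DSS, which is 38.5% and 17.9%, against 22.7% lower and 24.3% higher, or 47.1% in either direction, over all tested probes. The share lower therefore stood above that of the whole array and the share higher below it, and no test of that difference was made. The median ratio of the 39 probes was -0.18, against -0.02 over all tested probes. When the arrays were centred on their median in place of loess, the median of all tested probes was 0.20, and 7 probes of these genes (17.9%) were lower and 12 (30.8%) higher, against 9.7% lower and 36.3% higher over all tested probes under that scaling. The median of all tested probes rose as well, but probes moved by unlike amounts. The brightest Lamb3 probe went from -0.06 to 0.42, while Itgb3bp went from -0.63 to -0.55. Under both scalings the share lower stood above the array's and the share higher below it. Without array 3 or array 4 the share higher stood above the array's, at 28.2% against 25.4% and 23.1% against 21.0%. Under median centring, the medians of the laminin with nidogen probes and of the integrin subunit probes were 0.14 and 0.08. Both were below that of all probes, as in the fit reported here. Taking the brightest probe of each gene, 9 of 24 genes were lower and 2 higher. Of the 22 called probes, 21 had the same sign on every array with a value, though a call itself favours probes whose arrays agree. Of the 39 tested probes, 7 were well above background on 3 or more arrays in 1 dye only, 4 of them called, and these passed the brightness filter through that dye.

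**Figure D1:**
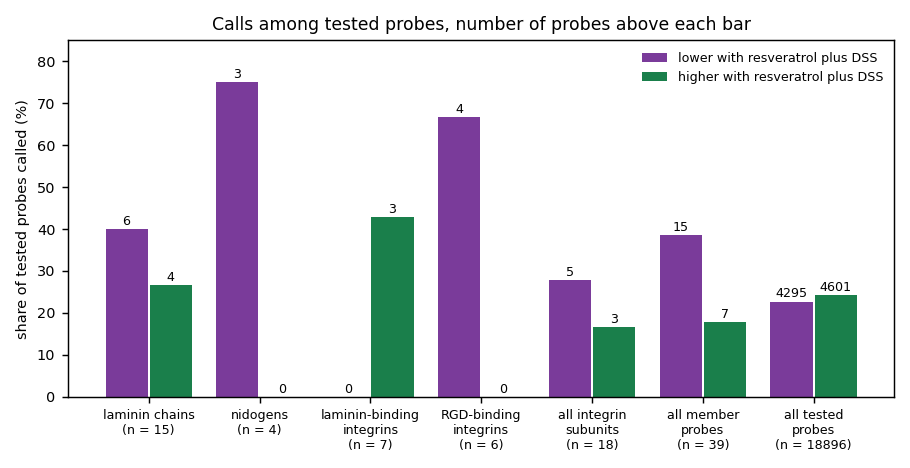
Share of tested probes called lower (purple) or higher (green) with resveratrol plus DSS against the DSS control pool, in percent, for groups of probes and for the whole array, with the number of called probes above each bar and the number tested below. Laminin-binding integrins have 3 higher calls and none lower, RGD-binding integrins have 4 lower and none higher, and laminin chains have calls on both sides.

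Laminin chains moved in both directions. Of 15 tested laminin probes, 6 were lower (40%) and 4 higher (26.7%), with a median of -0.18. Over the array 22.7% were lower and 24.3% higher, so the share higher was near the array's. Of the higher probes, 1 belonged to Lamb3, the beta 3 chain of the hemidesmosome laminin. The lower probes belonged to Lama5, Lama1, Lamb1 and Lamc1, the alpha 5, alpha 1, beta 1 and gamma 1 chains of more general basement membranes.

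Lamb3 had 4 tested probes that did not move together. The probe printed above had 0.87, 0.61, 0.53 and 0.58 on arrays 1 to 4, a mean of 0.65 ± 0.09 (moderated SE, n = 4 arrays), 1.57-fold higher, with an adjusted p of 0.00625. Its 4 arrays were close to each other, but its Cy3 signal was well above background on 2 arrays and its Cy5 signal on 4. It was tested because of the dye in which it is brighter, and it has no value under the stricter filter that asks for both dyes on every array. The other 3 Lamb3 probes were brighter and were not called. The third in brightness had 0.29, 0.65, -0.18 and 0.24 (adjusted p = 0.178). The brightest had -0.04 and -0.08 and the next -0.25 and -0.17, both on slide 1 alone (adjusted p = 0.702 and 0.241). The third probe had lost no array to spots that the scanner software had marked as outliers. With such spots kept, and so weighted in the loess fit, it had a mean of 0.67 and an adjusted p of 0.00288. It was also called higher under median centring, without array 3 (adjusted p = 0.035), on slide 1 alone (adjusted p = 0.0126) and with array weights (adjusted p = 0.0428). With those outlier spots kept, the brightest probe stayed uncalled at -0.09 (adjusted p = 0.537).

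Lama5, the alpha chain of the main laminin under adult epithelium, fell on all 3 of its probes. The probe printed above had -0.79, -0.68 and -1.36 on arrays 1 to 3, a mean of -0.94 ± 0.16 (n = 3), 1.92-fold lower, with an adjusted p of 0.0125. Array 3 was the lowest, and array 4 had no usable spot. A further probe had -0.39, -0.41 and -1.12 (adjusted p = 0.0384), again lowest on array 3, and lost the call without array 1 or array 2 (adjusted p = 0.072 and 0.0768). The brightest had values on slide 1 alone, -0.47 and -0.48, with an adjusted p of 0.046. When outlier spots were kept, all 3 had 4 values below 0, with means between -0.66 and -0.49. Under median centring the brightest probe had a mean of -0.06 (adjusted p = 0.868) and the dimmest a mean of -0.34 (adjusted p = 0.161). The brightest also lost the call with the slide as a random block (adjusted p = 0.0688).

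Lamb1 had -0.55, -0.77, -0.36 and -1.09, a mean of -0.69 ± 0.13 (n = 4), 1.62-fold lower, with an adjusted p of 0.012. Lamc1, its usual partner in a trimer, had -0.92, -0.82, -0.25 and -0.21, a mean of -0.55 ± 0.15 (n = 4) and an adjusted p of 0.0304. Both genes were below 0 on every array, but Lamb1 was lowest on array 4, where Lamc1 was nearest to 0. Lama1, known best from embryonic basement membranes, had -0.36, -0.21, -0.47 and -0.56, a mean of -0.40 ± 0.09 (n = 4), with an adjusted p of 0.0195. Lamc1 and Lama1 both lost the call when array 1 was left out, with adjusted p of 0.101 and 0.0693, and when array 2 was left out, with 0.108 and 0.0537. Lamb1 missed the threshold narrowly without array 2 (adjusted p = 0.0509), and Lama1 without array 4 (adjusted p = 0.0515).

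Of the remaining laminin probes, Lamc3, the gamma 3 chain, had -0.23, 0.20, -0.03 and -0.22 and was not called (adjusted p = 0.586). Lama2, the alpha chain of muscle laminin, had -0.08 and -0.29 on slide 1 (adjusted p = 0.324). Lamb2 and the other 3 Lama2 probes were too dim to test, as was the other Lamc1 probe. The other Lamc3 probe was well above background on all 4 arrays in both dyes, but its spots were flagged as outliers.

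Nidogen 1, which joins laminin to type IV collagen, fell on its 3 probes, by similar amounts in the fit reported here. The brightest had -0.36, -0.29, -0.14 and -0.81, a mean of -0.40 ± 0.13 (n = 4) and an adjusted p of 0.0439. The next had -0.48, -0.28, -0.27 and -0.61, with a mean of -0.41 ± 0.09 and an adjusted p of 0.0195. Its Cy5 signal did not stand well above background on any of the arrays, and its Cy3 signal did on 3. It passed the brightness filter through the control dye, and its value of 1.33-fold lower is therefore uncertain in size. The third had -0.33, -0.29, -0.41 and -0.82, with a mean of -0.46 ± 0.11 and an adjusted p of 0.0229, and its Cy5 signal was well above background on 1 array against 4 for Cy3. Array 4 was the lowest for every Nid1 probe. With the scanner's processed signals the means, in the same order, were -0.69, -1.06 and -0.99, so the size of the fall depended on the processing. The dimmer 2 probes share 38 genome positions and the 26-base run tccacacaatgtacctaggaccctag, so they are not independent readings. All 3 lost the call without array 1, with adjusted p from 0.0613 to 0.111, and without array 2, with 0.0596 to 0.102, and the brightest also without array 4 (adjusted p = 0.085). Nid2 had 0.21, 0.34, -0.19 and 0.75 and was not called (adjusted p = 0.179).

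**Figure D2:**
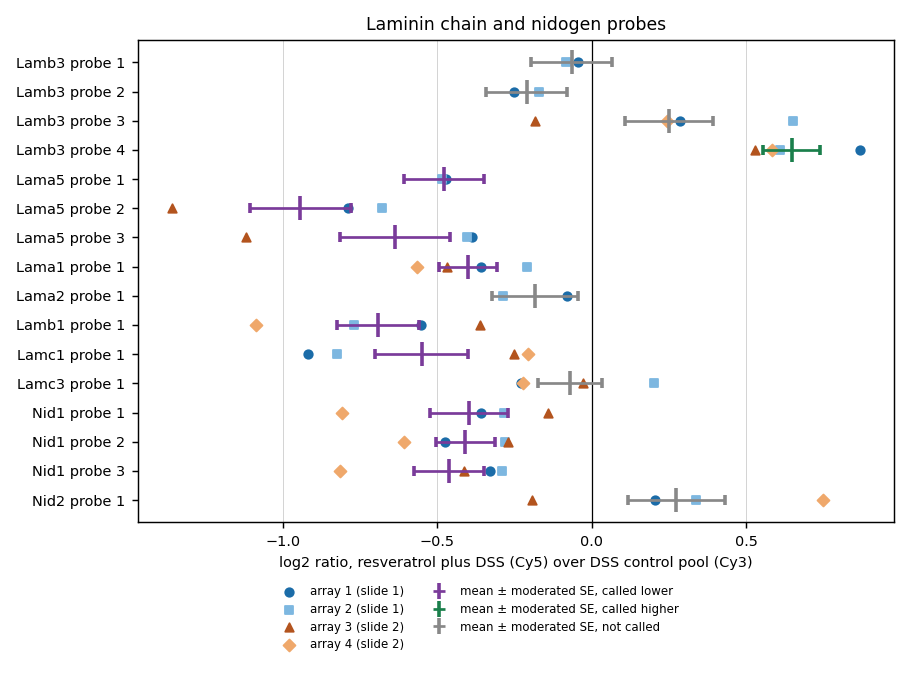
Log2 ratio of resveratrol plus DSS over the DSS control pool for the tested laminin and nidogen probes of the genes described here, numbered by brightness within its gene, with 1 point per array, a mean and the moderated standard error. Lama5, Lama1, Lamb1, Lamc1 and Nid1 probes lie left of 0, while the 4 Lamb3 probes spread over both sides.

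Among the receptors, the laminin-binding subunits had 7 tested probes, of which 3 were higher and 0 lower, against 24.3% higher and 22.7% lower over the array, with a median of 0.21. By the brightest probe of each gene, 1 of 4 genes was higher. All 3 belonged to Itga3 and Itga6, the alpha subunits of epithelial laminin receptors. Itgb4, the beta subunit of the hemidesmosome, and Itga7, known from muscle, were not called.

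Itga3 rose on both of its probes. Its probe printed above had 1.10, 0.96, 0.76 and 0.55 on arrays 1 to 4, a mean of 0.84 ± 0.11 (n = 4), 1.79-fold higher, with an adjusted p of 0.0057. A separate Itga3 probe, the brightest, had 0.81, 0.67, 0.47 and 0.42, a mean of 0.59 ± 0.10 (n = 4), 1.51-fold higher, with an adjusted p of 0.0086. Both probes were above 0 on all 4 arrays and highest on array 1. Under every alternative that gave them a value, slide 2 alone excepted, both were called higher.

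Itga6 was less even. The probe without the hexamer had 0.83, 0.79, 0.22 and 0.36, a mean of 0.55 ± 0.13 (n = 4), 1.46-fold higher, with an adjusted p of 0.021. All arrays were above 0, with slide 1 above slide 2. The call was lost without array 1 or array 2 (adjusted p = 0.0777 and 0.0816). The brighter probe, which carries CACCTC, had 0.52, 0.41, 0.06 and -0.13 and was not called (adjusted p = 0.204). With outlier spots kept, and so weighted in the loess fit, that brighter probe had a mean of 0.72 and an adjusted p of 0.0031. It had lost no array to outlier flags.

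Itgb4 had 0.03 and 0.24 on slide 1 (adjusted p = 0.464). With outlier spots kept on all arrays its mean was 0.32, with an adjusted p of 0.0248. Itga7 had -0.41 and -0.25 on slide 1 for 1 probe (adjusted p = 0.114), and a mean of -0.06 ± 0.08 on 4 arrays for the other. Itgb1, the beta subunit shared by most laminin, collagen and fibronectin receptors, had -0.05, 0.06, -0.52 and -0.49 and was not called (adjusted p = 0.143). Its slide 1 arrays were near 0 and its slide 2 arrays below it.

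The collagen receptor subunits gave no call. Itga1 had -0.50 and -0.31 on slide 1 (adjusted p = 0.0738), and with outlier spots kept its mean was -0.44, with an adjusted p of 0.0144. Itga2 had 0.43, 0.35, -0.67 and 0.11, with both signs and an adjusted p of 0.826. Itga10 and Itga11 were too dim to test.

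Subunits that bind RGD ligands had 6 tested probes, of which 4 were lower and 0 higher, against 22.7% lower and 24.3% higher over the array, with a median of -0.51. The 4 lower probes belonged to 2 genes, 3 of them to Itga5. Itga5, the alpha subunit of the fibronectin receptor, fell on its 3 probes. The probe printed above, the brightest, had -0.39, -0.43, -0.87 and -0.49, a mean of -0.54 ± 0.11 (n = 4), 1.46-fold lower, with an adjusted p of 0.0132. The next had -0.32, -0.55, -0.35 and -1.08 (adjusted p = 0.0237), and the last had -0.41, -0.67, -0.11 and -0.75 (adjusted p = 0.027), with Cy5 well above background on 2 arrays against 4 for Cy3. All 12 values lay below 0. The calls of the dimmer 2 were lost without array 1 (adjusted p = 0.0507 and 0.0738) and without array 2 (adjusted p = 0.0722 and 0.103). Under median centring the brightest had a mean of -0.30 and an adjusted p of 0.149.

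Itgav, the alpha subunit that pairs with several beta subunits to bind vitronectin and latent TGF-beta, gave opposite values on its 2 probes. The brighter probe, placed at chr3:66926115-66926174, had -0.69, -0.48, -0.63 and -0.49, a mean of -0.57 ± 0.08 (n = 4), 1.49-fold lower, with an adjusted p of 0.00657. Under median centring its mean was -0.36 and its adjusted p 0.0804. The probe printed above lies 5′ of it, across an intron, and had 0.67, 0.57, 0.20 and 0.07, a mean of 0.38 ± 0.13 and an adjusted p of 0.0508. Its Cy5 signal was well above background on 3 arrays and its Cy3 signal on 2, so it passed the brightness filter through Cy5. It has no value under the stricter filter that asks for both dyes on every array. The brighter probe minus this one was -1.36, -1.05, -0.84 and -0.55 on arrays 1 to 4, a mean of -0.95 ± 0.34 (SD, n = 4 arrays). An exact sign-flip permutation test of that difference gave p = 0.125, two-sided, the smallest that 4 arrays allow, and 11 such pairs of probes were compared. The pairs of Itga3 and Itga6 probes, with mean differences of -0.25 and -0.34, gave the same p. The test therefore does not set the Itgav pair apart. Because its 2 probes had opposite signs, the values of this gene describe its probes and not the gene as a whole. Itgb8, a partner of alpha V, had -0.24, 0.18, -0.03 and 0.02 (adjusted p = 0.884). Itgb3, Itgb6 and the probe named Itga8 were too dim to test.

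Leukocyte integrins were mostly too dim. Itgb7, which pairs with alpha E or alpha 4 on gut lymphocytes, had -0.68 and -0.58 on slide 1, a mean of -0.63 ± 0.13 (n = 2), 1.55-fold lower, with an adjusted p of 0.0265. With outlier spots kept it had -0.64, -0.50, -1.39 and -0.53, all below 0, and an adjusted p of 0.00671, while under median centring its mean was -0.30 and its adjusted p 0.323. Itgae, the alpha E subunit, had -0.16, 0.08, -0.15 and -0.32 and was not called (adjusted p = 0.253). Itga4, Itgad, Itgal, Itgam and Itgb2 were not tested, since neither dye was well above background on more than 1 array. In RNA from whole mucosa, fewer cells of a type and less RNA per cell cannot be told apart.

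Of the 4 genes named for binding integrins, 2 were tested, and Itgb1bp1 and Itgb1bp2 were too dim. Itgb3bp, a centromere protein also known as a nuclear receptor cofactor, had -0.84, -0.63, -0.51 and -0.52, a mean of -0.63 ± 0.09 (n = 4), 1.54-fold lower, with an adjusted p of 0.00677. All 4 arrays agreed in sign. Itgb4bp, now named Eif6, a factor of ribosome assembly, had 1.06, 0.89, 0.20 and 0.05 and missed the threshold (adjusted p = 0.055). With outlier spots kept, and so weighted in the loess fit, its mean was 1.17, with an adjusted p of 0.00109. This probe had lost no array to outlier flags.

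**Figure D3:**
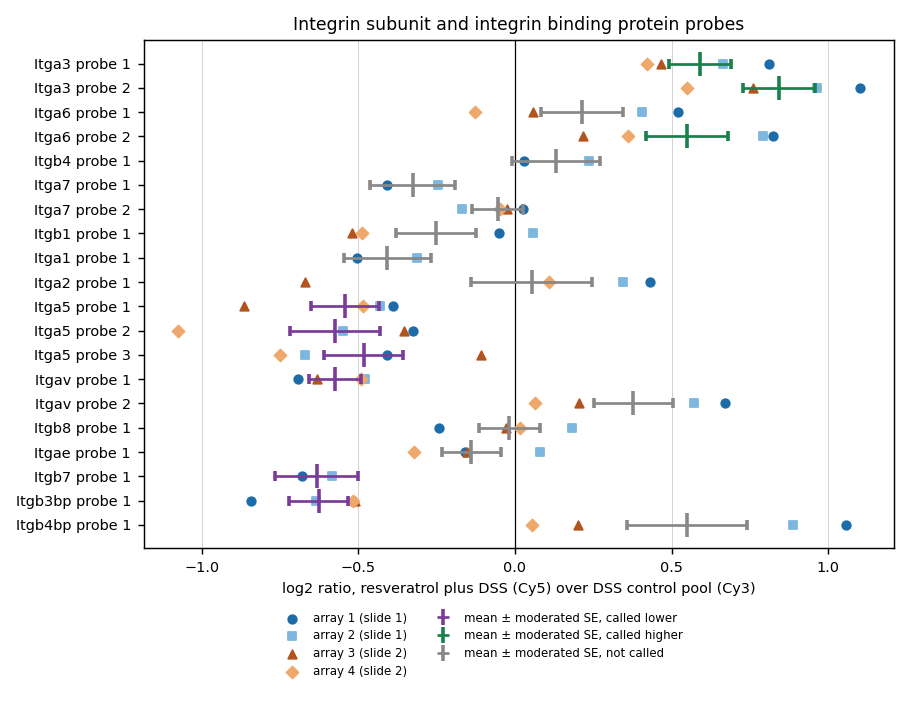
Log2 ratio of resveratrol plus DSS over the DSS control pool for each tested integrin subunit and integrin binding protein probe, numbered by brightness within its gene, with 1 point per array, a mean and the moderated standard error. Itga3 and the dimmer Itga6 probe lie right of 0 on all arrays, the 3 Itga5 probes left of it, and the Itgav probes on opposite sides.

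The slides differed in how many probes were called. The distance from 0 did not shift in 1 direction. Lamc1 had means of -0.87 on slide 1 and -0.23 on slide 2, while Lama1 had -0.28 and -0.52. The arrays of slide 1 alone kept all 22 calls, while 58.6% of all probes tested there were called. The arrays of slide 2 alone had values for 17 of the 22 called probes and kept 0, with adjusted p from 0.0531 to 0.385, while 12.1% of all probes tested there were called. At an unadjusted limma p under 0.05, 9 probes (32.1%) were lower and 3 (10.7%) higher on slide 2, of 28 tested, against 22.5% lower and 20.5% higher over all probes tested there. Of the 68 spots of these genes, 12 and 14 were marked as outliers on arrays 3 and 4, against 2 and 2 on arrays 1 and 2, and 9 probes had values on slide 1 alone. All 17 called probes kept their sign on slide 2, but they were called from a fit that includes slide 2, so this is no separate check.

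**Figure D4:**
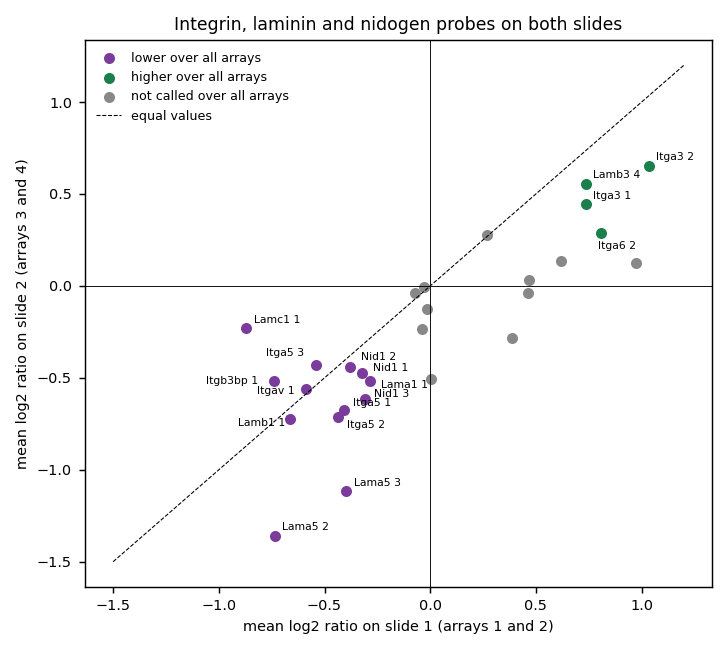
Mean log2 ratio of each probe on slide 1 (arrays 1 and 2, horizontal) against slide 2 (arrays 3 and 4, vertical, from array 3 alone for both Lama5 probes), for probes of the genes described here with a value on both, with the line of equal values. The called probes sit at the lower left or the upper right, and the Lamc1 and Itga6 probes lie nearer to 0 on slide 2.

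Genes that act together with these were read from lists of integrin ligands, of focal adhesions and hemidesmosomes, and of further basement membrane components. Of 11 tested genes for integrin ligands other than laminins and collagens, 8 were lower and 0 higher by the brightest probe, against 22.7% lower and 24.3% higher over the array, with a median of -0.49. Cy5 was well above background on 2 arrays for Fn1 and on 1 array each for Vcam1 and Postn, against 4 for Cy3, so these 3 passed the brightness filter through the control dye. Fn1, fibronectin, the ligand of alpha 5, had -1.02, -1.37, -0.83 and -1.48, a mean of -1.18 ± 0.13 (n = 4) and an adjusted p of 0.00451. Thbs1, thrombospondin 1, had -2.56, -2.44, -1.80 and -2.19, and Vcam1, the endothelial ligand of alpha 4, had -1.38, -1.18, -0.77 and -0.85. Madcam1, the gut ligand of alpha 4 and beta 7, had -0.31, -0.38 and -1.07 on 3 arrays, with an adjusted p of 0.0468. All 4 genes lay below 0 on every array with a value.

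Of 21 tested genes of focal adhesions and hemidesmosomes, the structures that tie integrins to the cytoskeleton, 8 were higher and 3 lower, or 38.1% and 14.3%, against 24.3% and 22.7% over the array, with a median of 0.26. Among the higher genes, Lims1 and Ptk2 had Cy3 well above background on 2 arrays, so they passed the brightness filter through Cy5. Plec, plectin, which binds beta 4, had 1.15, 0.97, 0.18 and 0.20 (adjusted p = 0.0409), and Cd151, a tetraspanin partner of alpha 3 and alpha 6, had 0.40, 0.20, 0.23 and 0.63 (adjusted p = 0.031). Actn4, an actin crosslinker, was higher at 0.79, while its relative Actn1 was lower at -0.66, both on slide 1. The other lower genes were Krt5, a keratin tied to hemidesmosomes, at -0.44, and Lims2, a focal adhesion adaptor, at -0.42. Dst, a linker of keratin to hemidesmosomes, had -0.14 and was not called, and Col17a1, a hemidesmosome collagen, was not tested. Of 11 other basement membrane and linking genes tested, 3 were lower and 2 higher, or 27.3% and 18.2%, near the shares of the whole array (22.7% and 24.3%). Dag1, dystroglycan, a laminin receptor that is no integrin, had 2.18, 1.68, 0.98 and 2.09, a mean of 1.73 ± 0.21 (n = 4) and an adjusted p of 0.00492. Lad1, ladinin 1 of the epithelial basement membrane, had a mean of 0.67, while Sparc, a collagen-binding matrix protein, had a mean of -1.11. Also lower were Egfl7, with a mean of -1.23 and -2.79 on array 3, and Fbln1, with a mean of -0.76.

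Marker genes of the cell types in the mucosa were read alongside, where 22.7% of all tested probes of the array were lower and 24.3% higher. All 13 colon epithelium markers were tested, 7 were higher with resveratrol plus DSS and 0 lower, and their median was 0.80. The summed level of the 7 with values on every array, in normalised intensity, was 34413 to 97168 in resveratrol plus DSS and 27986 to 41653 in the control pool. Of 7 tested fibroblast markers, 6 were lower, with summed levels, over 6 genes, of 2175 to 4380 in resveratrol plus DSS and 7039 to 12694 in the control pool. For Dcn, Fap and Pdgfra, Cy5 was well above background on 1 array, so they passed the brightness filter through the control dye. Neutrophil markers were lower on 5 of 5 tested genes, and the sum over the 3 with values on every array was 1115 to 4663 in resveratrol plus DSS, against 6111 to 14172 in the control pool.

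Leukocyte markers were lower on 5 of 10 tested genes, with summed levels of 1946 to 5233 in resveratrol plus DSS and 2356 to 5285 in the control pool. Endothelial markers were lower on 4 of 7 and higher on 1, with 1228 to 2524 against 1889 to 3097. Smooth muscle markers were lower on 2 of 8 (25%), near the array's 22.7%, with 5495 to 21651 against 9024 to 18443. Platelet markers were lower on 3 of 4. Csf3r, Cdh5, Tek, Tie1 and Gp1bb had Cy5 well above background on 2 arrays, and passed the brightness filter through the control dye. Cd68, Cd4, Cd8a, Pdgfrb, Thy1, Lum and Pecam1 were not tested. The part of these cell types in the laminin and integrin differences was not tested.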

How the data were processed

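Each deposited scanner file gives intensity values per spot in both dyes, extracted with Agilent Feature Extraction 9.5.3.1, and probe positions on rn3, per the file headers. The authors' deposited value table holds log2 ratios whose centring is not stated. Its columns correlated with the scanner's ratios at 0.98 to 0.99 and had medians of -0.01, -0.01, 0.09 and -0.02, and it served as an alternative. Limma is named in the submitters' processing notes.

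From the mean and background intensities, background was corrected by normexp (offset 50) and each array was normalised by loess, with control and outlier spots at weight 0, in R 4.3.3 and limma 3.58.1. Outlier spots were removed, and spots of a probe averaged. Probes well above background in a dye on 3 or more arrays, with 2 or more values, were tested against 0 (lmFit, eBayes) with Benjamini-Hochberg adjustment at 0.05. The steps were tested on simulated data. The well-above-background share was 44.1% to 49.2% of spots in Cy5 and 42.8% to 57.1% in Cy3. Precision is limited by the small number of arrays. Each array's RNA came from 2 rats of its own. Of the 59 probes, 45 were matched to the RefSeq gene table (GRCr8, names only) by symbol and 14 by accession. Genes were named by role, every tested gene included, and context genes by their brightest probe. Alternatives changed the background correction, scaling, filter, outlier spots, variance model, arrays, slide, probes and array weights. Values of 1 laminin gene are not reported here, although its probes are in the counts. The members and lists were chosen with earlier results of these data known.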

Additional observations from a re-analysis of the deposited data

How the results depend on the processing

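Counts are given as lower, then higher, probes of these genes (15 and 7 as reported), and medians for laminins with nidogens (-0.21) and for integrin subunits (-0.10). The scanner's processed signals gave 4 higher (10.3%, against 16.8% of all probes), with medians of -0.29 and -0.19. Sizes also changed with them. Itgb3bp was at -1.14 and the printed Lamb3 probe at 1.05, against -0.63 and 0.65 as reported, while Itgb7 was at -0.47, against -0.63. Median centring in place of loess gave 7 and 12, with medians of 0.14 and 0.08, while the median of all probes was 0.20 and 9.7% of them were lower and 36.3% higher. Requiring both dyes well above background on all arrays gave 6 and 4 of 27 tested, with a laminin median of -0.13. These were 22.2% and 14.8%, against 15.0% and 19.7% of all probes. Keeping outlier spots, also in the loess fit, gave 11 higher (33.7% of all probes) and -0.29. A standard error wider by the square root of 2, to allow for a control as variable as the treated samples, gave 2 and 3. These were Itgav (brighter probe) and Itgb3bp lower, Lamb3 and both Itga3 probes higher. Of all probes, 3.9% were then lower and 7.7% higher. Slide 1 alone gave 12 higher (33.2% of all probes). Slide 2 alone gave 0 and 0 (limma), with a laminin median of -0.18. Array weights gave 11 higher (30.0% of all probes), and the authors' table a laminin median of -0.36. Leaving out each array in turn gave 4 to 16 lower, 3 to 11 higher (5 and 3 without array 1, 4 and 3 without array 2, 11 higher without array 3), and medians of -0.44 to -0.21 and -0.10 to -0.06. The slide as a random block kept 18 of the 22 calls. No paired analysis was possible because there was a single labelled group, set against a pool with no replicate numbers.

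Of the 22 called probes, 0 changed sign under the 18 alternatives, and 23 values of uncalled probes did, 10 of them under median centring, where the whole array had a median of 0.20, against -0.02 with loess. With processed signals these were Itgb8 at 0.00 and the brighter Itga6 probe at -0.07. With median centring they were Itgb8 at 0.05, Itga1 at 0.06, Lama2 at 0.14, Lamb3 at 0.42 and 0.25, Lamc3 at 0.46 (the single one past the threshold, adjusted p = 0.0213), Itga7 at 0.11 and 0.01, Itgae at 0.03 and Itgb1 at 0.19. With outlier spots kept they were Itgb8 at 0.00, Lamc3 at 0.40 and Itgb1 at 0.07. Over the fits that left out 1 array, Itgb8 ran from -0.09 to 0.06 (positive without array 1) and Itga2 from -0.07 to 0.29, with -0.07 without array 1 and -0.04 without array 2. On slide 1 alone Itgb1 was at 0.00, and on slide 2 alone Itga2 was at -0.28 and the brighter Itga6 probe at -0.04. In the authors' table Itgb8 was at 0.03 and Itgb4 at -0.07. Where a value moved, the cause was not tested.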

Other observations

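Some relatives of these genes carry other names in the scanner files and were matched through RefSeq, so they are outside the counts above. Lama3, the alpha 3 chain of the hemidesmosome laminin that also holds the Lamb3 chain, had ratios of 0.75, 0.81, -0.04 and 0.30, a mean of 0.45 ± 0.16 (n = 4 arrays), and missed the threshold (adjusted p = 0.0572). Lama4, a laminin chain of blood vessels, was lower on 2 probes, with -0.45, -0.42, -0.42 and -0.86 on the first (adjusted p = 0.013) and -0.39, -0.48, -0.36 and -0.90 on the other (adjusted p = 0.0168), both below 0 on every array. The first Lama4 probe was well above background on 1 array in Cy5 and 3 in Cy3, so it passed the brightness filter through the control dye. Itga8, the RGD-binding subunit of smooth muscle and fibroblasts, had -0.38, -0.54, -1.66 and -0.99 on a probe with another name (adjusted p = 0.0217), with array 3 the lowest, and a further probe had -0.20 on array 1 and -0.49 on array 4 (adjusted p = 0.121). Itgb5 was too dim to test.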
